A study of Homo sapiens with 9 samples.

Results

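The DLK1-MEG3 imprinted cluster at 14q32 was examined for HIF-1α binding in SK-N-BE(2) cells. Its members were chosen by position: every peak summit on chromosome 14 between 101.0 and 102.0 Mb of hg19 in the 6 deposited peak lists, which gave 43 of 16302 summits on chromosomes 1 to 22, X and Y. The megabase was picked because it is dense in hypoxia calls, so its counts are given as a description, with no test. SK-N-BE(2) is an established line from a human neuroblastoma that carries extra copies of MYCN. Cultures were held at 21% oxygen (normoxia) or 1% oxygen (hypoxia), in either case for 48 hours. Chromatin immunoprecipitation with an antibody against HIF-1α, followed by sequencing (ChIP-seq), gave 3 libraries in each group. The 3 input libraries, all labelled 21% oxygen, have no peak list here. The labels do not say that the 3 libraries of a group came from separate cultures. Alleles were not separated, so no call can be assigned to the maternal or the paternal copy.

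HIF-1α, a transcription factor subunit that builds up when oxygen is low, binds DNA at the core letters ACGTG or GCGTG. In the 14q32 cluster, genes are expressed from 1 parental copy. DLK1, a membrane protein with EGF-like repeats that acts on Notch signalling and is made by neuroendocrine and neural crest tumours, and RTL1, a retrotransposon-derived gene needed in placenta, are expressed from the paternal copy. MEG3, MEG8 and MEG9 are long non-coding RNAs expressed from the maternal copy, together with large arrays of microRNAs. A methylated control element between DLK1 and MEG3 sets which copy is used. DIO3, an enzyme that inactivates thyroid hormone, lies at the far end of the cluster, and BEGAIN, a gene of neuronal synapses, lies before DLK1.

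No hg19 sequence or annotation was used here, so genes were placed to the nearest 10 kb: DLK1 at 101.19 to 101.2 Mb, MEG3 at 101.29 to 101.33 Mb, RTL1 near 101.35 Mb and the microRNA arrays up to 101.55 Mb. Exons, introns and UTRs were therefore not assigned. In RefSeq on GRCh38.p14 the 7 listed genes run in the order BEGAIN, DLK1, MEG3, RTL1, MEG8, MEG9 and DIO3. All 37 microRNA hairpins matched there, for 36 of 41 listed names, lie between MEG3 and DIO3 in this order, 33 of them between RTL1 and MEG9.

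The promoters of MEG3, RTL1 and MEG9 are shown because no summit was called at the places of MEG3 and RTL1, while calls resumed toward the end of the arrays, where MEG9 follows the microRNAs. Each is 300 bases from RefSeq on GRCh38.p14, 250 before and 50 after the gene's start, with ACGTG or GCGTG on either strand in capitals (as CACGT or CACGC where the match is on the opposite strand).
MEG3, chr14:100825858-100826157, plus strand: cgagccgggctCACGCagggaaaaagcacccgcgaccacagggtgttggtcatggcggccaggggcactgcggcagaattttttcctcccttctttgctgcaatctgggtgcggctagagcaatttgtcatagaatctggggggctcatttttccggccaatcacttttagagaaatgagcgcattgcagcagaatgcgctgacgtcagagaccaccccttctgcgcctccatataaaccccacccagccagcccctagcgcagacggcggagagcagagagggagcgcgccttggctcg
RTL1, chr14:100903673-100903972, minus strand: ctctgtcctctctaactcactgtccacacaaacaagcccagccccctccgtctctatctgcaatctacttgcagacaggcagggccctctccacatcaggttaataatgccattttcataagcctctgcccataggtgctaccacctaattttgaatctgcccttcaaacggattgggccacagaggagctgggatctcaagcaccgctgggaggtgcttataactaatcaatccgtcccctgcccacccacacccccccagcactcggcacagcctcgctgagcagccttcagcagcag
MEG9, chr14:101069661-101069960, plus strand: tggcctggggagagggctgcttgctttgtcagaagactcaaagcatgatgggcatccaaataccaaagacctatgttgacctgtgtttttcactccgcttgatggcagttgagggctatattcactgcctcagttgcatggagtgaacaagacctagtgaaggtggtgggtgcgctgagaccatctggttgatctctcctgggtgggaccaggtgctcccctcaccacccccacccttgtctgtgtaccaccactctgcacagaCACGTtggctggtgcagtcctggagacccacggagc
Counted from 1 at the 5′ end, the MEG3 window held GCGTG at position 12 and the MEG9 window ACGTG at position 265, both on the opposite strand. The RTL1 window held neither. RefSeq lists 3 overlapping starts of MEG3, and 2 of these windows held a match. DIO3 had a match in its 1 window and BEGAIN in 3 of 5; DLK1 and MEG8 had no entry. Of 34943 promoter windows of the same length, 48.4% held at least 1 of the cores, 21.4% ACGTG and 36.5% GCGTG. A match is a description of the letters and does not mark a binding site.

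The hypoxia libraries differed in extension and list length. The fragment extension behind the lists, read as the shortest interval, was 48 bp in hypoxia 1, close to the 46 to 47 bp of normoxia. It was 155 bp in hypoxia 2 and 167 bp in hypoxia 3. Depth, as background reads per kb, was similar, between 5.31 and 6.69 in the 6 libraries. Hypoxia 1 had 1408 intervals, hypoxia 2 had 5833 and hypoxia 3 had 7619, and the normoxia lists had 32 to 109. The authors' fold equals the reads at a summit plus 1 over the local background plus 1. The added 1 lowers folds most where the background is low, as in hypoxia 1. Reads at a summit count extended fragments, so they rise with the extension as well. The genome-wide background, the smallest local background of a list, was 0.318, 0.92 and 0.886 reads in hypoxia 1, 2 and 3. The fold describes a peak within its own list. Neither the fold nor the summit reads of hypoxia 1 are on the scale of hypoxia 2 and hypoxia 3.

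HIF-1α was called on both sides of DLK1 in hypoxic cells and nowhere in the megabase in normoxic cells. Hypoxia 1, 2 and 3 had 7, 16 and 20 summits, a mean of 14.3 ± 6.66 (SD, n = 3), and normoxia 1, 2 and 3 had 0 each. The groups did not overlap, and the choice of the megabase favours high hypoxia counts. The whole lists did not overlap either, with 1924 to 7982 summits in hypoxia and 44 to 156 in normoxia. The normoxia lists are short: at the share of hypoxia summits that lay in the megabase, 0.268%, the 281 normoxia summits together would have given 0.754. The 0 calls therefore do not show that the megabase was unbound in normoxia.

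**Figure D1:**
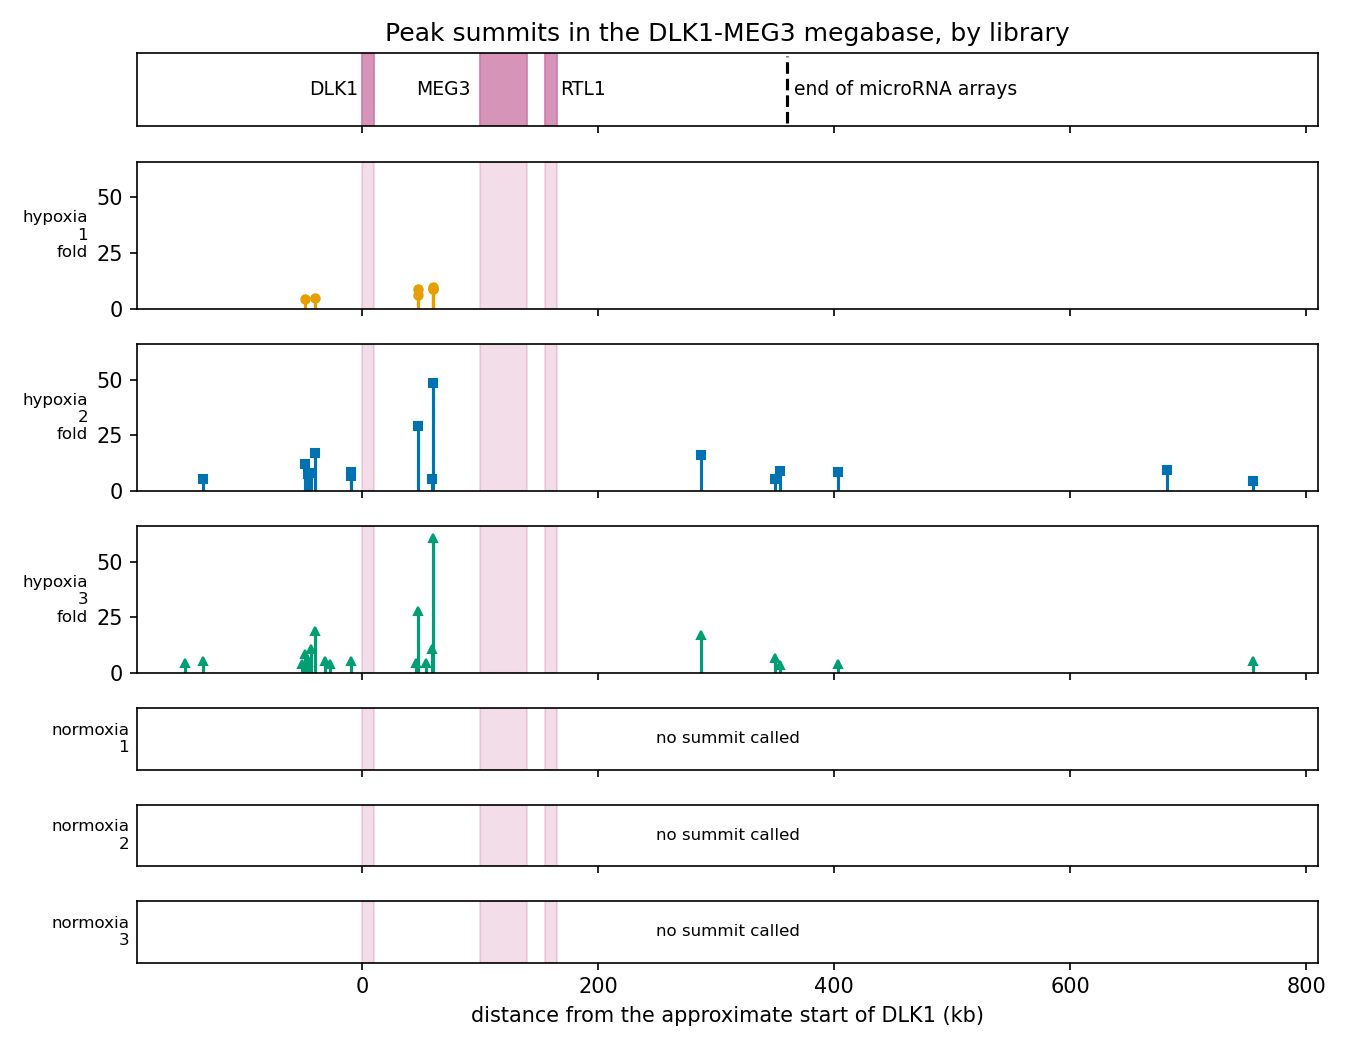
Peak summits of each library along the megabase, by distance in kb from the approximate start of DLK1; the height is the authors' fold over background and shaded bands are the approximate places of DLK1, MEG3 and RTL1. Calls gather before DLK1 and between DLK1 and MEG3, the highest at 48.6 and 60.7 in hypoxia 2 and hypoxia 3, and the 3 normoxia lists are empty.

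Overlapping intervals of the 6 lists (at least 1 bp shared) formed 21 regions. Hypoxia 1, 2 and 3 called 4, 15 and 20 of the 21 (19%, 71.4% and 95.2%), beside 13.4%, 61.4% and 80.7% of the 9395 hypoxia regions of the genome. Of these, 4 were called in all 3 hypoxia libraries, 10 in hypoxia 2 and hypoxia 3, 6 in hypoxia 3 alone and 1 in hypoxia 2 alone. Called in at least 2 hypoxia libraries were thus 14 of 21 (66.7%, exact 95% interval 43% to 85.4%), beside 44.0% of the 9395 hypoxia regions of the genome. Called in all 3 were 4 of 21 (19%, 5.45% to 41.9%), beside 11.5% of the genome's. All these counts belong to the hypoxia calls for which the megabase was chosen, so nothing is read from them. The 14 rested on hypoxia 2 and hypoxia 3: without either, 4 regions were called in both remaining libraries. The 4 intervals of hypoxia 1 all overlapped a call in hypoxia 2 and in hypoxia 3. Over the genome, 1085 of 1257 hypoxia 1 regions were called in all 3. Of 15 hypoxia 2 regions, 14 (93.3%) were called in hypoxia 3, beside 70.6% of 5773 over the genome.

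The places of DLK1, MEG3 and RTL1 held 0 summits in all 6 libraries. The stretch before DLK1 (190 kb) held 10 regions, 6 of them called in at least 2 hypoxia libraries, and the 90 kb between DLK1 and MEG3 held 5, of which 3 were. From MEG3 to the end of the microRNA arrays, RTL1 included, 3 regions lay in 220 kb, each called in hypoxia 2 and hypoxia 3 and not in hypoxia 1. Beyond the arrays, 3 regions lay in 450 kb, 2 of them in both of those libraries. Of the 4 regions of all 3 libraries, 2 lay in the first stretch and 2 between DLK1 and MEG3.

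The region of highest fold in each hypoxia list of this megabase lay between DLK1 and MEG3, at chr14:101250073-101251179. The authors' fold there was 9.77, 48.6 and 60.7 in hypoxia 1, 2 and 3, with 17, 96 and 122 reads at the summit. By fold, the interval ranked 244 of 1408, 77 of 5833 and 48 of 7619 in their lists. The summits of smallest p, at 101250583, 101250575 and 101250570, lay within 13 bp of each other, the narrowest spread of the 14 regions. Hypoxia 1 listed 3 summits in this interval and hypoxia 2 and hypoxia 3 listed 1 each. The others of hypoxia 1, at 101250425 (fold 8.75) and 101250661 (fold 8.68), lay outside that spread. On the DLK1 side, 661 bp away, a weaker region at chr14:101248832-101249411 was called in hypoxia 2 (fold 5.46, 22 reads) and in hypoxia 3 (fold 10.9, 25 reads).

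The other region of all 3 libraries between DLK1 and MEG3 lay at chr14:101237240-101237933. Its fold was 8.94, 29.2 and 28 in hypoxia 1, 2 and 3, with 13, 55 and 69 reads. Hypoxia 2 and hypoxia 3 were thus nearly level in fold. The lower values of hypoxia 1 go with its shorter extension and are not compared with theirs. Its summits of smallest p were up to 90 bp apart, and hypoxia 1 also listed a summit at 101237564 (fold 6.22). Together with 2 regions of hypoxia 3 alone, at chr14:101236158-101236358 (fold 4.41) and chr14:101244080-101244435 (fold 4.62), these made a group of 5 regions in 15 kb. The group starts 36.2 kb after the approximate end of DLK1 and ends 38.8 kb before the approximate start of MEG3, each place being rounded to 10 kb. The control element of the cluster is known to lie between the same genes, but its hg19 position was not used here.

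Before DLK1, 7 regions lay within 23.6 kb, between 101139595 and 101163185, no neighbours more than 10 kb apart (a spacing chosen after the positions were seen). Both regions of all 3 libraries in this stretch belong to the group. At chr14:101150431-101150959 the fold was 4.66, 16.9 and 18.8 in hypoxia 1, 2 and 3, with 8, 41 and 60 reads. At chr14:101141591-101142054 the fold was 4.34, 12.3 and 8.51, with 7, 31 and 33 reads. By fold within each list, the first of these ranked 1146 of 1408, 548 of 5833 and 511 of 7619 in hypoxia 1, 2 and 3, and the next 1253, 877 and 1929. Both regions were thus near the bottom of the hypoxia 1 list and in the upper part of the others.

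Also in this group, the region at chr14:101147099-101147420 had a fold of 8.02 in hypoxia 2 and 10.8 in hypoxia 3 (17 and 24 reads). At chr14:101144370-101144746 the fold was 7.78 and 4.85 with 15 and 22 reads: hypoxia 3 had more reads but the lower fold, and its local background was 4.22 times the genome-wide value, against 1.15 times in hypoxia 2. Nearest to DLK1 was chr14:101180543-101180946, which ends 9.05 kb before the approximate start of the gene, a distance within the rounding of that place. Its fold was 8.52 in hypoxia 2 and 5.51 in hypoxia 3 (16 and 21 reads). Farther out, at chr14:101055674-101055960, both libraries had 9 reads, with folds of 5.21 and 5.3.

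**Figure D2:**
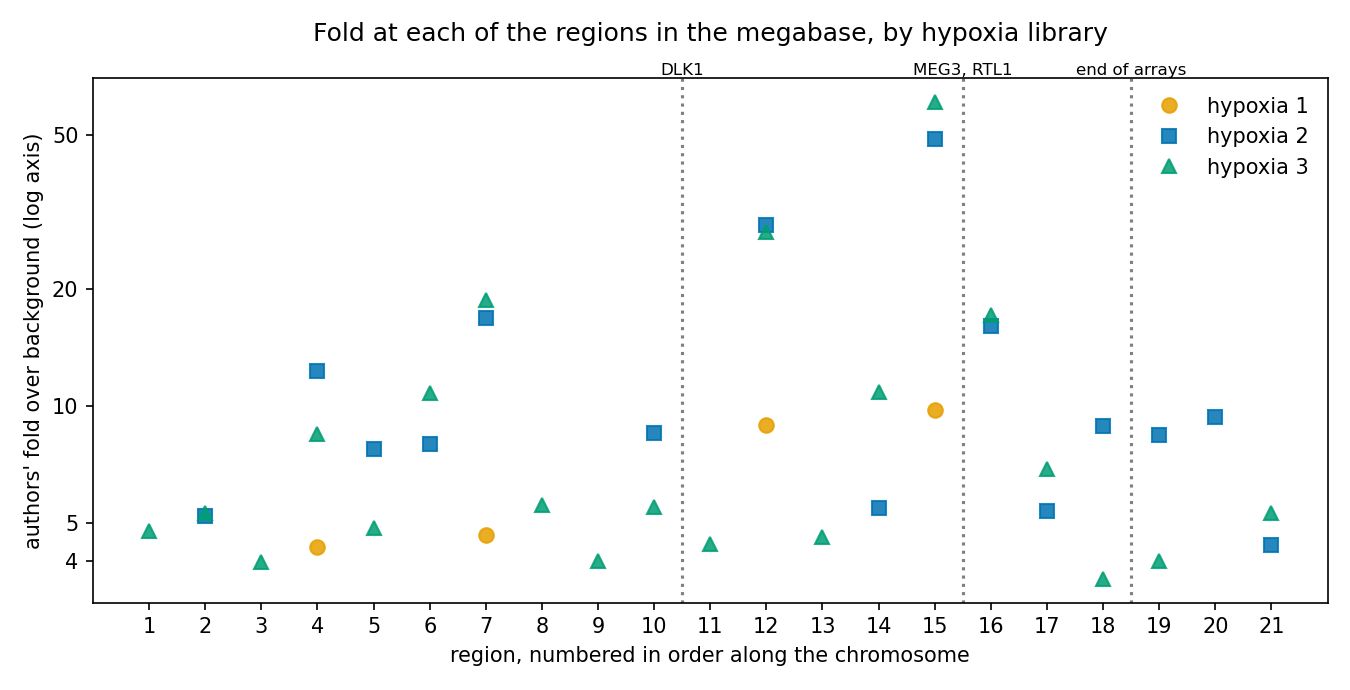
The authors' fold (log axis) at each of the 21 regions, numbered along the chromosome, in hypoxia 1, 2 and 3; dotted lines mark where DLK1, MEG3 with RTL1, and the end of the microRNA arrays fall in this order. A missing point means no call; regions 12 and 15, between DLK1 and MEG3, stand highest in every library, and hypoxia 1 has points at 4 regions.

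No list had a call between 101251180 and 101476886, a gap of 226 kb that covers the places of MEG3 and RTL1. It was the next longest of the 20 gaps after one of 278 kb beyond the arrays. Of 9371 gaps between neighbouring hypoxia regions of the genome, 69.9% were shorter than 226 kb and the median was 84.1 kb. DLK1 lay in a gap of 55.2 kb, longer than 41.7% of the genome's gaps.

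Toward the microRNA arrays calls resumed at chr14:101476887-101477600. Its fold was 16.1 in hypoxia 2 and 17.2 in hypoxia 3, with 54 and 42 reads and summits 15 bp apart. Both values exceeded those of chr14:101141591-101142054, which hypoxia 1 called with 7 reads, yet hypoxia 1 had no call here. Hypoxia 1 has no recovered background where it has no call, so the higher of hypoxia 2 and hypoxia 3 was borrowed. Here that was 2.62 times the genome-wide value, from hypoxia 2, at which hypoxia 1 would have needed 7 reads. At the 4 regions called in all 3, local background was 1.78 to 2.93 times that value in hypoxia 1. It was 1 to 1.74 times in hypoxia 2 and 1.16 to 3.38 times in hypoxia 3, so the reads needed are uncertain. The ratio of hypoxia 1 reads to hypoxia 2 reads was 0.177 to 0.236 at the 4 regions called in all 3, which would give 9.56 to 12.8 reads here. The ratio to hypoxia 3 reads, 0.133 to 0.212, would give 5.6 to 8.91. These ratios come from regions that hypoxia 1 did call, which favours high values. Of the 17 regions without a hypoxia 1 call, this was the 1 at which the low end of either estimate reached the reads needed.

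At the end of the arrays lay chr14:101539570-101539861, with folds of 5.37 and 6.89 in hypoxia 2 and hypoxia 3 (13 and 12 reads). Next to it, chr14:101543807-101544109 had a fold of 8.91 in hypoxia 2 (17 reads) and 3.6 in hypoxia 3 (8 reads), the lowest fold among all members. Beyond the arrays, chr14:101593587-101593835 had 8.45 and 4.01 (21 and 15 reads) and chr14:101944559-101944811 had 4.4 and 5.3 (14 and 9 reads). The region chr14:101871554-101871800 was called in hypoxia 2 alone, with a fold of 9.37 and 17 reads. At the edges of the megabase, the first member had its summit at 101040540 (fold 4.77, hypoxia 3) and the last at 101944729 (fold 5.3, hypoxia 3). The nearest summits outside it were at 100952518 (fold 10.1, hypoxia 3) and 102050682 (fold 6.02, hypoxia 2).

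Reads decide whether a library calls a region, and a region's length joins the intervals of all its libraries, so reads and length must tend to rise with the number of libraries; they are given as a description. In hypoxia 3 the summit reads ran from 33 to 122 (median 64.5) at the 4 regions of all 3 libraries, from 8 to 42 (median 18) at the 10 of hypoxia 2 and hypoxia 3, and from 8 to 14 (median 10.5) at the 6 of hypoxia 3 alone. In hypoxia 2 they ran from 31 to 96 and from 9 to 54 in the first 2 of these sets. Region lengths were 464 to 1107 bp, 249 to 714 bp and 167 to 356 bp for regions of 3, 2 and 1 libraries.

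Over the 14 regions shared by hypoxia 2 and hypoxia 3, the order of the reads was more alike than that of the folds, with a Spearman rho of 0.87 for reads and 0.60 for fold (0.67 for fold over 4074 shared regions of the genome). Hypoxia 3 had more reads at 8 of the 14 and a higher local background at 9, and at 4 it had more reads but a lower fold. Summits of these libraries lay a median of 45.5 bp apart (quartiles 20.5 and 65.2), beside 26 bp (11 and 52) at 4060 shared regions elsewhere. Between hypoxia 1 and hypoxia 2 the median was 30 bp at 4 regions, beside 41 bp at 1094 elsewhere, and between hypoxia 1 and hypoxia 3 it was 33.5 bp, beside 45 bp at 1130.

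**Figure D3:**
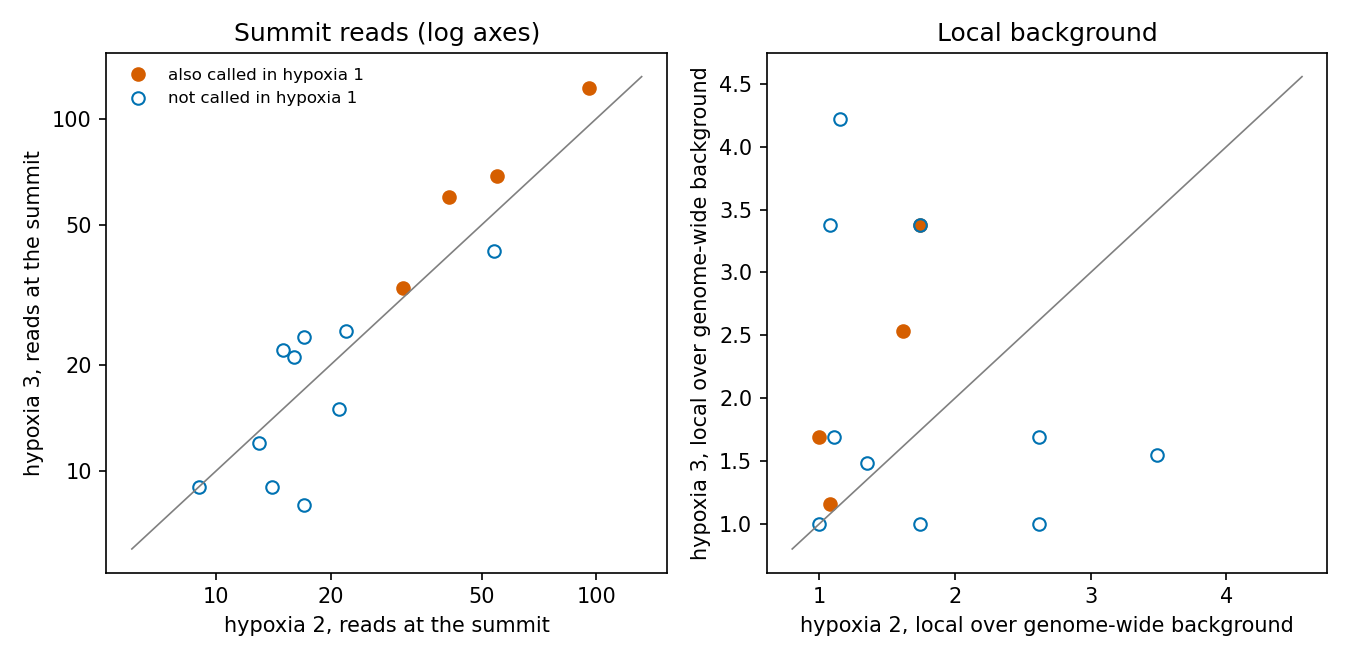
Summit reads (left, log axes) and local background over the genome-wide background (right) in hypoxia 2 against hypoxia 3 at the 14 regions called in both; filled points were also called in hypoxia 1, and the line marks equal values. Reads run from 9 to 96 in hypoxia 2 and from 8 to 122 in hypoxia 3, with 17 against 8 farthest from the line. The local backgrounds, up to 3.49 in hypoxia 2 and 4.22 in hypoxia 3, scatter away from the line.

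The local background here is the value recovered together with the reads from fold and p; whether it was taken from the input libraries is not stated in the labels. The local background had a median of 2.65, 1.49 and 1.69 times the genome-wide value in hypoxia 1, 2 and 3, beside 1.78, 1.35 and 1.36 at the summits elsewhere in each list, with a maximum of 4.22 in the megabase. The median fold over summits was 8.68, 8.48 and 5.41 in hypoxia 1, 2 and 3, beside 6.51, 6.46 and 6.08 elsewhere. It was thus higher in the first 2 libraries and lower in the last. In hypoxia 1 the 7 summits came from only 4 intervals. With 1 summit per interval its median was 6.8, close to the 6.51 over summits elsewhere. In the megabase of chromosome 2 that holds the amplified part around MYCN, which had the most hypoxia regions per megabase, the median local background in hypoxia 3 was 150 times the genome-wide value and the median fold 1.52. The part of local background in the calls at 14q32 was not tested.

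None of the 14 regions had a normoxia call (exact 95% interval for the share 0% to 23.2%), beside 2.25% of the 4136 such regions of the genome. At the 4 regions called in hypoxia 1, whose extension is near that of normoxia, a normoxia call at the background seen there took at least 7 to 9 reads. The 17 and 13 hypoxia 1 reads between DLK1 and MEG3, scaled to the depths of the normoxia libraries, came to 15.5 to 17.2 and 11.8 to 13.1. Both lie above the mark in all 3 normoxia libraries. The 7 and 8 reads before DLK1 came to 6.36 to 7.07 and 7.27 to 8.08, which reached it in normoxia 1 at 1 region and otherwise did not. That 1 case, 8.08 where 8 were needed, has a narrow margin. The scaling used background reads per kb and left out the extension, 48 bp in hypoxia 1 and 46 to 47 bp in normoxia. The regions are members through their hypoxia calls alone, which favours high hypoxia 1 reads, so these values are a description and do not show that binding was absent in normoxia.

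On chromosome 14 the megabase stood among other populated ones. It had 21 hypoxia regions, rank 17 of 2139 megabases with a hypoxia region, and its 14 regions of at least 2 libraries gave a shared rank of 3. The megabase before it had 20 hypoxia regions, 9 of them in at least 2 libraries, and the one after it had 10 and 1. The highest counts elsewhere on the chromosome were 25 and 9. A window from 1.5 to 2.5 Mb of chromosome 11, which holds the imprinted genes H19 and IGF2 and was chosen for comparison with earlier results known, had 28 hypoxia regions, 16 of at least 2 libraries and 8 of all 3. Its highest fold was 26.6, 107 and 137 in hypoxia 1, 2 and 3, and 1 of its 16 regions had a normoxia call. These are counts of 2 windows that were both picked for their calls, and their difference was not tested.

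**Figure D4:**
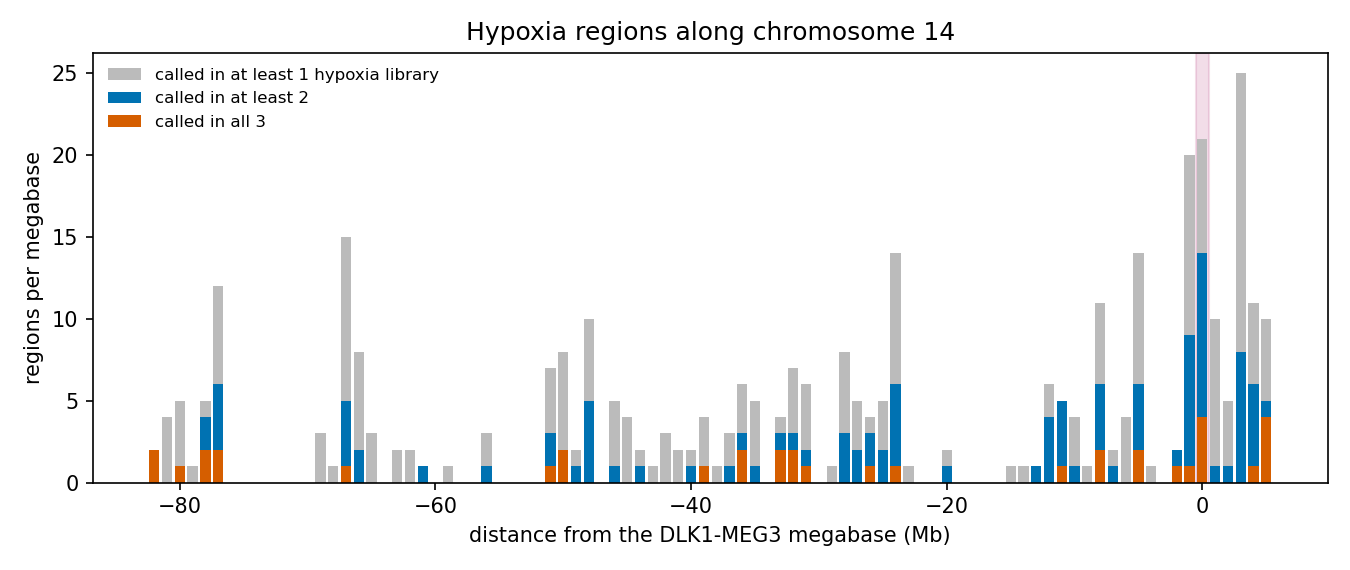
Hypoxia regions per megabase along chromosome 14, by distance in Mb from the DLK1-MEG3 megabase (shaded), with bars for regions called in at least 1, at least 2 and all 3 hypoxia libraries drawn over one another from 0. The shaded megabase has 21, 14 and 4, its neighbours 20, 9 and 1 before it and 10, 1 and 0 after it.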

How the data were processed

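The submitters' processing notes name BWA 0.7.17, MACS2 and hg19; the version and settings of MACS2 were not given in sources used here. The authors deposited 1 narrowPeak list per library. The authors' deposited fold is a ratio, which the values fit as summit reads plus 1 over local background plus 1. The deposited −log10 p and −log10 q come from the peak caller, and the deposited score was −log10 q times 10, rounded down, at all 16463 summits. Values were computed with Python 3.11.15, pandas 2.3.3 and scipy 1.17.1. Reads and local background were recovered from fold and −log10 p (tolerance 0.001), which gave whole reads at 16463 of 16463 summits. The smallest local background of a list was taken as genome-wide. On simulated data, 500 of 500 planted read counts and 1010 of 1010 planted regions of at least 2 lists were recovered. The simulation used the same formula for fold and p, and its regions lay far apart with intervals that had to overlap. It therefore checks the code only, and not how well short intervals or close neighbours are joined.

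Summits were counted by row, intervals with the same ends once with the summit of smallest p, and regions by overlap of at least 1 bp. Positions are 1-based. Exact (Clopper-Pearson) intervals cover counting error only. Comparisons were descriptions without a test, since the megabase was chosen for its hypoxia calls. The members and lists were chosen with earlier results of these data known. Regions were named if called in all 3 hypoxia lists or in normoxia, if first in their stretch by mean percentile of fold within lists, or if among the first 10 others of 2 hypoxia lists. The regions of hypoxia 3 alone named between DLK1 and MEG3 fall outside this rule and were chosen after their values were seen. The alternatives were stricter q, fold and p thresholds, a narrower window, other overlap rules, counting intervals, and leaving out each library.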

Additional observations from a re-analysis of the deposited data

How the results depend on the processing

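Of 74 alternatives over 8 results, 58 stayed close to the reported value. These include 8 for the normoxia counts and 13 for the share without a normoxia call, which could not move. Close meant within a fixed ratio for counts and within the SD over libraries or pairs for medians. For the share it meant not below its exact interval. Summits per hypoxia library, 14.3 as reported, numbered 9.33 with −log10 q held to 5 or more, 8.33 with folds of 6 or more and 6.33 from DLK1 to the end of the arrays. They ranged from 11.5 to 18 with 1 library left out. Regions of at least 2 hypoxia libraries, 14 as reported, numbered 6 with folds of 6 or more, 6 from DLK1 to the end of the arrays and 4 to 14 with 1 hypoxia library left out. Regions of all 3 hypoxia libraries, 4 as reported, numbered 2 with −log10 q held to 5 or more, 2 with folds of 6 or more, 2 with all lists at a −log10 p of at least 7.15 and 2 from DLK1 to the end of the arrays. That count was 0 with reciprocal overlap of at least 50%, since hypoxia 1 intervals are short. With 1 hypoxia library left out, 4 to 14 regions were called in both remaining libraries, which is not a count over 3 libraries. The median distance between summits averaged 36.3 bp over pairs of libraries. With reciprocal overlap only the pair of hypoxia 2 and hypoxia 3 remained, at its 45.5 bp. With 1 library left out 1 pair remained, so the 30 to 45.5 bp are the medians of single pairs. The median fold in the megabase over that of the list averaged 1.18 over hypoxia libraries, 1.58 from DLK1 to the end of the arrays, and 1.1 to 1.32 with 1 library left out. The median local background over the genome-wide value averaged 1.94 over hypoxia libraries, and 1.59 to 2.17 with 1 library left out. Stricter thresholds and a narrower window hold fewer calls by construction. The summit distances under reciprocal overlap and with 1 library left out follow from which pairs remain. The cause of the other shifts was not tested. Normoxia counts were 0 and the share without a normoxia call 100% under every alternative run for them, which the empty lists fix. At most 17 reads in hypoxia 1 and a median of 14.5 in hypoxia 3 lay behind a summit, which limits the precision of any 1 region. No paired analysis was possible because the results come from no test and the normoxia lists have no call in the megabase.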

Other observations

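The 6 regions called in hypoxia 3 alone had 8 to 14 summit reads and folds of 3.98 to 5.58. Scaled to hypoxia 2 by the genome-wide background of the lists, 0.886 reads in hypoxia 3 and 0.92 in hypoxia 2, the reads came to 8.31 to 14.5. This background includes the extension, unlike the reads per kb used as depth above. A call there took 7 to 10 reads at the local background seen in hypoxia 3, and all 6 reached this. Reads of regions chosen by their call tend to be high, and why hypoxia 2 had no call was not tested. The region of hypoxia 2 alone beyond the microRNA arrays, chr14:101871554-101871800, had 17 reads. Scaled to hypoxia 3 in the same way they came to 16.4, where 6 were needed. Its fold of 9.37 was the highest among the 7 regions of 1 library.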
